A study of Mus musculus with 4 samples.

Results

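MILI-bound small RNAs that shared 1 start but ended at 4 or more different bases were described here, as a view of how variable the 3′ ends of these RNAs were. The deposited list of MILI-bound sequences was grouped by 5′ end, meaning chromosome, strand and the position of the first base. It held 4906138 sequences at 3454272 distinct 5′ ends. A 5′ end listed with 4 or more sequences was called a multi-length end, because sequences that share a start differ only in length and so each marks another 3′ end. There were 139712 multi-length ends, 4.04% of all 5′ ends, and they carried 624901 sequences, 12.7% of the list. They were set against the 2562871 single-length ends, those with 1 sequence, which made up 74.2% of all 5′ ends.

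The RNA came from testes of C57BL/6 mice at 14 dpp (days post partum), an age at which the first wave of germ cells has entered meiosis. MILI was immunoprecipitated and RNA of about 28 to 30 nt was cut from a gel, which bears on every length given here. There were 2 libraries from Tdrd9+/- mice, which carry 1 working copy of the gene for the tudor-domain helicase TDRD9, and 2 libraries from Tdrd9-/- mice, which carry none. The study compared the genotypes, but the list pools the 4 libraries without read counts or library names. No comparison of genotypes and no replicate error could be had from it, and the depth of each library is unknown. Brackets hold 95% intervals by the exact Clopper-Pearson method, and these reflect only the number of 5′ ends counted. Ends that lie close together or in 1 gene share their source RNA and are not replicates. Without counts, an end that was sampled more often and an end whose 3′ ends were formed less exactly cannot be told apart.

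MILI (PIWIL2) is a PIWI protein of male germ cells that carries piRNAs, small RNAs that guide the silencing of transposons. Primary piRNAs are cut from long single-stranded transcripts and begin mostly with U. In the ping-pong cycle a PIWI protein slices an RNA opposite position 10 of its guide, so that the new piRNA overlaps the guide by 10 nt and tends to carry A at position 10. The 3′ end is made later: a precursor held by the PIWI protein is shortened by a trimming exonuclease (PNLDC1) and then methylated by HENMT1, which protects it.

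The 5′ ends with the most sequences show what such a set looks like. In each line the longest sequence at the end is printed 5′ to 3′ as DNA letters, with the bases present in every sequence of that end in lower case and the tail within which the 3′ ends fell in capitals. Among the chromosomes searched for examples, 27 ends whose longest sequence was at most 30 nt had 10 or more sequences. The first lines give the 2 with more than 10 and, of the 25 tied at 10, the first 6 in chromosome order.
Fbxo41, 12 sequences of 18 to 30 nt: ttgaatgcagaacacaggCAATAAGCTGTC
Hif1an, 11 sequences of 18 to 30 nt: tggactgaacagatgcagGCGAATGCTTGT
Gm22710, 10 sequences of 21 to 30 nt: tgaacgcgtagtgagggcagtACTGCTAAC
Tfcp2l1, 10 sequences of 20 to 30 nt: tgattgtagttttgatgtggATACTAAGAA
antisense to Mfsd4a, 10 sequences of 19 to 30 nt: tgagagtggatctgtagttTAGGCTGGCCT
Abl2, 10 sequences of 20 to 29 nt: tgagatgccgagctagacaaTCAGTGTGC
Abl2, 10 sequences of 20 to 29 nt: tgataagaaactgacagaagCCTTGATTA
Zbtb37, 10 sequences of 19 to 30 nt: tgggacttttgacatggcaGCTTAGGCTGG

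The Fbxo41 end lay at chr6:85420399-85420428 (mm9, minus strand) and matched the 3′ UTR of the messenger of Fbxo41, an F-box protein. Its 12 sequences had every length from 18 to 30 nt except 1, and no 5′ end of the list had more. The Hif1an end (chr19:44647258-44647287, plus strand) matched the 3′ UTR of Hif1an, the asparagine hydroxylase that restrains hypoxia-inducible factor. The Tfcp2l1 end (chr1:120576701-120576730, plus strand) and the Zbtb37 end (chr1:162941771-162941800, minus strand) also lay in 3′ UTRs, the first of a transcription factor and the second of a zinc finger protein. The ends of Abl2, a tyrosine kinase, lay at chr1:158576275-158576303 and chr1:158577987-158578015 on the plus strand, and at each the 10 lengths ran without a gap. The end at chr1:133923915-133923944 (plus strand) matched no transcript in sense and was antisense to Mfsd4a, a membrane transporter. The Gm22710 end (chr1:120355779-120355808, minus strand) matched an annotated snRNA and an overlapping non-coding transcript, 2900060B14Rik, and so is no clear piRNA. Of the 27 ends, 26 began with U and 19 with UG, and 25 lay in 20 kb windows with 1000 or more sequences. The snRNA match, with 148 sequences in its window, did not.

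Ends of other sources looked alike. The next lines give 1 end that matched no transcript, 1 end sense to Gtf3c4, and 1 antisense to Mroh2a, each among those with the most sequences of its source.
no transcript match on chromosome 5, 10 sequences of 21 to 30 nt: tgaagaccaggaattgagcagCTGTAGCTT
Gtf3c4, 10 sequences of 21 to 30 nt: tggtatggtagactgcaaaatCTCAACAGC
antisense to Mroh2a, 9 sequences of 22 to 30 nt: tgacctctgtagcgagaccaacCCTTCTTT
They lay at chr5:38593945-38593974, chr2:28679042-28679071 and chr1:90158633-90158662 in that order, all on the minus strand, and none of the 3 had a missing length. Some other unmatched or antisense ends with the most sequences of their source missed lengths, up to 3. Gtf3c4 encodes a subunit of the RNA polymerase III factor TFIIIC. A further end with 10 sequences, at chr2:68669121-68669150 (plus strand), matched both Pfdn6, a prefoldin subunit, and its processed pseudogene Gm13612, so its source gene is uncertain.

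Ends on each side of the threshold came in smaller steps. The first 2 lines have 4 sequences and were counted as multi-length, and the last has 3 and was not.
Tradd, 4 sequences of 25 to 28 nt: taagtctagtactgtggggaagggcGGC
Fbxl8, 4 sequences of 22 to 29 nt: tggactgcaccttgctagtatgTCGCGCG
Pskh1, 3 sequences of 25 to 27 nt: caccaattccgtggatatgtgggcaCT
The Tradd end (chr8:107782860-107782887, minus strand) had 4 adjoining 3′ ends, whereas the Fbxl8 end (chr8:107792345-107792373, plus strand) had 3 adjoining ones and 1 that was set apart at 22 nt. The Pskh1 end (chr8:108437411-108437437, plus strand) began with C. All 3 lay in coding sequence. Over the whole list, the 92342 ends with 4 sequences had their outermost 3′ ends 3.30 nt apart on average and 87.8% began with U. The 214988 ends with 3 sequences had them 2.33 nt apart and 83.6% began with U.

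The 3′ ends of a multi-length end were packed together. The mean number of sequences was 4.47 (SD 0.786 over ends), and 92342 ends had 4, 33873 had 5, 9721 had 6, 2708 had 7 and 1068 had 8 or more. The outermost 3′ ends lay 3.82 nt apart on average (SD 1.22 nt, median 3 nt), where 3 nt is the least that 4 sequences allow. In 52.6% of multi-length ends the distance was 3 nt and in 29.0% it was 4 nt. Distances of 8 nt or more were seen at 2928 ends (2.10%), and the widest was 13 nt. In 77.9% the lengths formed an unbroken ladder, with every length between the shortest and the longest present, and in a further 15.1% exactly 1 length was missing. These values are in part set by how the ends were chosen and are given as a description.

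The ladders sat on the same few lengths. The shortest sequence was 25.2 nt on average (SD 1.29 nt) and the longest 29.0 nt (SD 0.822 nt), so that the upper limit varied less among ends than the lower one. Single-length ends had a mean of 27.1 nt (SD 1.22 nt). A sequence of 27 nt was present at 96.6% of multi-length ends, one of 28 nt at 92.6%, one of 26 nt at 88.5% and one of 29 nt at 72.4%. Away from this core the share fell to 45.8% at 25 nt and 26.5% at 30 nt, and it was 13.2% at 24 nt and 2.27% at 31 nt. Among 843 different sets of lengths, 26 to 29 nt was the most frequent with 38477 ends (27.5%). The unbroken sets of 25 to 28 nt (15.9%), 25 to 29 nt (9.67%), 27 to 30 nt (7.04%) and 26 to 30 nt (6.95%) followed. The gel cut touches these limits, and its part in them was not tested.

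**Figure D1:**
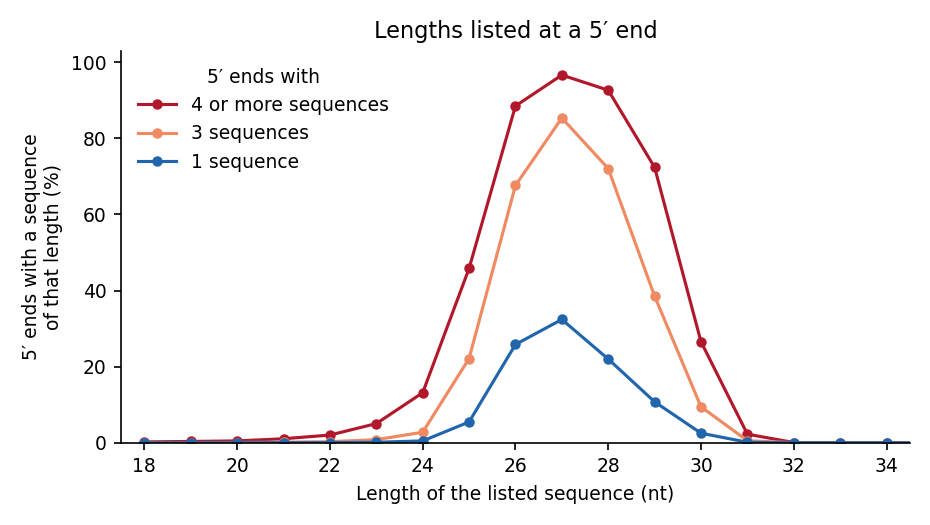
Share of 5′ ends (vertical axis, %) that have a sequence of each length (horizontal axis, nt), for ends with 4 or more sequences, with 3 and with 1. The multi-length ends reach 96.6% at 27 nt and fall to 2.27% at 31 nt, and all 3 curves peak at 27 nt.

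A C just past the 3′ end went with fewer sequences ending there. For each length strictly inside an end's range, the share of ends in which that length was present was split by the base that follows it. At 25 nt the length was present in 56.0% (54.8–57.2%) of multi-length ends where C came next, against 62.0% before G, 63.0% before A and 68.2% before U. At 27 nt it was 94.4% (94.1–94.6%) before C and 97.2% to 97.7% before the other bases, and at 29 nt 84.5% (83.9–85.0%) before C and 90.2% to 92.5% before the others. As the base that follows, C gave the lowest share at all 5 lengths from 25 to 29 nt. The share varied as much with the last base of the sequence of that length. At 29 nt it ran from 80.5% with G to 92.7% with C, and at 25 nt from 56.1% with U to 70.7% with G. The last base itself also differed along the ladder. The shortest sequence ended in G at 32.4% of multi-length ends and in U at 13.9%, whereas the longest ended in G at 17.7%, in U at 29.6% and in C at 31.3%. Single-length ends ended in G at 22.1%, in U at 24.8% and in C at 29.8%.

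Multi-length ends began with U more often than single-length ends. The share was 89.2% (89.0–89.4%) against 68.8% (68.8–68.9%), and it was higher in 19 of 19 autosomes, where it ran from 84.4% to 91.8% at multi-length and from 67.4% to 70.6% at single-length ends. It rose at each step in the number of sequences, from 78.2% with 2 to 87.8% with 4, 93.6% with 6 and 96.2% (94.8–97.2%) with 8 to 12. Put the other way, 5.01% of all ends that began with U were multi-length, against 1.52% of ends with A, 1.51% with C and 1.69% with G. The number of sequences was used to choose the ends, but their bases were not.

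Position 2 carried G more often as well. Among ends with a 5′ U, 50.2% of multi-length ends had G at position 2 against 42.0% of single-length ends, and the share was higher in 19 of 19 autosomes. It reached 58.4% (55.3–61.5%) at ends with 8 to 12 sequences. In the messengers that held these ends, a U was followed by G in 32.1% of cases. A at position 5 was the next largest difference in which multi-length ends were higher, with 43.7% (43.4–43.9%) against 37.5%. Beyond position 2 the base shares of the 2 kinds of end differed by at most 6.11 percentage points.

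The ping-pong base was much less affected. A stood at position 10 in 32.5% (32.3–32.7%) of multi-length ends and in 31.4% (31.3–31.4%) of single-length ends. The mean share of A over positions 11 to 20 was 32.1% and 30.2%, so multi-length ends exceeded their own surroundings by less than single-length ends did. The share at position 10 was higher in 18 of 19 autosomes, chromosome 18 being the exception with 31.1% against 31.7%. Along the number of sequences it went from 31.8% with 2 to 32.3% with 3 and 32.6% (32.3–32.9%) with 4, and then to 31.9% with 6 and 31.1% (28.3–34.0%) with 8 to 12.

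**Figure D2:**
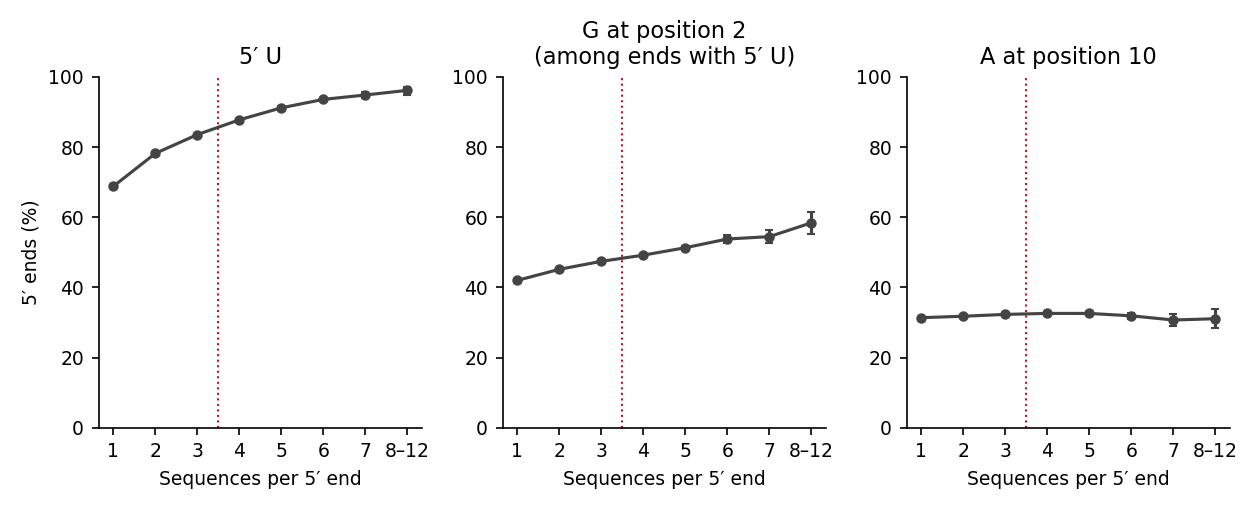
Share of 5′ ends (vertical axes, %) with U as first base, with G at position 2 among those with a 5′ U, and with A at position 10, by the number of sequences at the end (horizontal axes); bars are exact 95% intervals and the dotted line marks the limit between 3 and 4. U goes from 68.8% to 96.2% and G from 42.0% to 58.4%, while A at position 10 stays between 30.7% and 32.6%.

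The few multi-length ends without a 5′ U sat beside other starts. There were 15098 of them, 6250 with A, 4519 with C and 4329 with G. Their outermost 3′ ends lay 3.65 nt, 3.67 nt and 3.64 nt apart on average, against 3.85 nt with U. A listed 5′ end within 3 nt on the same strand was found for 98.3%, 98.7% and 98.0% of them, and for 87.6% of multi-length ends with U. A neighbour that began with U lay within 3 nt of 71.3% of the multi-length ends without 5′ U and of 66.1% of those with 5′ U. Such a neighbour had more sequences than the end itself for 36.6% of multi-length ends without 5′ U, for 9.48% of those with 5′ U and for 30.6% of single-length ends without 5′ U. Of all multi-length ends, 73.1% had more sequences than any other end within 3 nt, 11.3% had no end within 3 nt and 35.3% had another multi-length end there. Single-length ends had no end within 3 nt in 61.3%. The median distance to the nearest other multi-length end on the strand was 11 nt. Density of starts and number of sequences per start moved together here, and the part of sampling depth in this was not tested.

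More multi-length ends than single-length ends matched messenger RNA. In an exact match of the longest sequence to spliced GENCODE transcripts, 63.5% (63.2–63.7%) of multi-length ends were sense to a protein-coding gene, against 38.8% (38.8–38.9%) of single-length ends, and the share was higher in 19 of 19 autosomes. Another transcript was matched in sense by 3.52% against 2.44%. Antisense matches alone were rarer, with 1.88% (1.81–1.95%) against 3.23%, and 31.1% (30.9–31.4%) against 55.5% matched no transcript, which covers introns and intergenic sequence. The 3′ end spread was nearly the same in the 4 sources, with mean distances of 3.74 nt to 3.92 nt.

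The excess of 5′ U held inside each source. Among ends sense to protein-coding genes it was 88.3% against 56.2%, among ends sense to other transcripts 84.7% against 66.5%, among antisense ends 92.2% against 73.7% and among unmatched ends 91.3% against 77.5%. Single-length ends on messengers were thus the class with the lowest share of 5′ U. Matches to microRNA genes (70 ends) and structural RNA genes (167 ends) made up 0.0501% and 0.120% of multi-length ends, against 0.0185% and 0.0414% of single-length ends. Of the multi-length ones 65.7% and 56.3% began with U. Rn7sk, the 7SK RNA that holds back transcription elongation, had 14 such ends and the Y RNA Rny3 had 7, and the rRNA gene CT010467.1 had 18, or 34 with ends that match other genes too. The microRNA gene with the most was Mir7210 with 3.

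**Figure D3:**
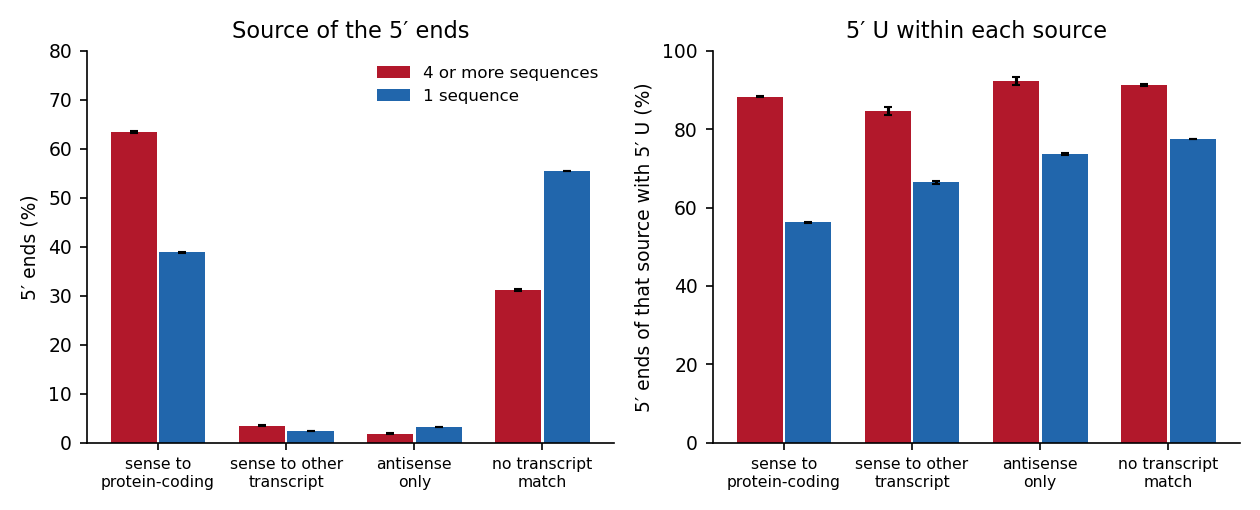
Left, share of multi-length and single-length 5′ ends (vertical axis, %) by the kind of transcript matched; right, share of the ends of each source that begin with U; bars start at 0 and carry exact 95% intervals. Multi-length ends are sense to protein-coding genes in 63.5% against 38.8%, and begin with U more often in each of the 4 sources.

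Within messengers, multi-length ends lay mostly in 3′ UTRs. On 1 transcript per gene, 77609 multi-length ends could be placed (87.5% of those sense to protein-coding genes). Of these, 61.4% lay in 3′ UTRs, 35.6% in coding sequence and 2.99% in 5′ UTRs, against 45.9%, 50.1% and 4.07% of placed single-length ends. Per length, there were 1.73 multi-length ends per kb of 3′ UTR and 0.774 per kb of coding sequence, a ratio of 2.24, whereas single-length ends gave 14.5 and 12.2 per kb, a ratio of 1.19. Of 656 genes with 20 or more placed multi-length ends, 455 (69.4%) had them denser in the 3′ UTR than in coding sequence, and 423 (64.5%) had single-length ends denser there. In 468 of the 656 the ratio was higher for multi-length than for single-length ends. The share of 5′ U was 89.1% in 3′ UTRs, 87.1% in coding sequence and 86.9% in 5′ UTRs at multi-length ends, and 59.4%, 51.7% and 53.8% at single-length ends.

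The messenger bases around the ends also departed from the transcripts' own composition. At multi-length ends with 5′ U the base before the start was G in 10.3% and C in 37.1%, against 15.5% and 33.7% at single-length ends with 5′ U, where messengers held 25.3% G and 24.4% C on average. The base just after the longest sequence was U in 24.4% (24.1–24.7%) of all placed multi-length ends, against 25.2% in their transcripts. In that place G stood in 29.9% and A in 27.6%, and at ends with 5′ U C stood there in 17.8%, against 24.4% in the transcripts. Single-length ends had G there in 27.9%, A in 29.6% and U in 24.5%. At those with 5′ U, C stood there in 17.8% as well. After the shortest sequence of multi-length ends U stood in 26.2%. Starts downstream on the same strand were least frequent 25 nt from a multi-length end (9.55% of ends) among distances from 1 to 60 nt, and most frequent at 29 nt (11.3%) among those from 24 to 60 nt. At single-length ends starts were least frequent at 59 nt (3.29%), with 3.31% at 25 nt, and most frequent at 33 nt (3.68%).

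**Figure D4:**
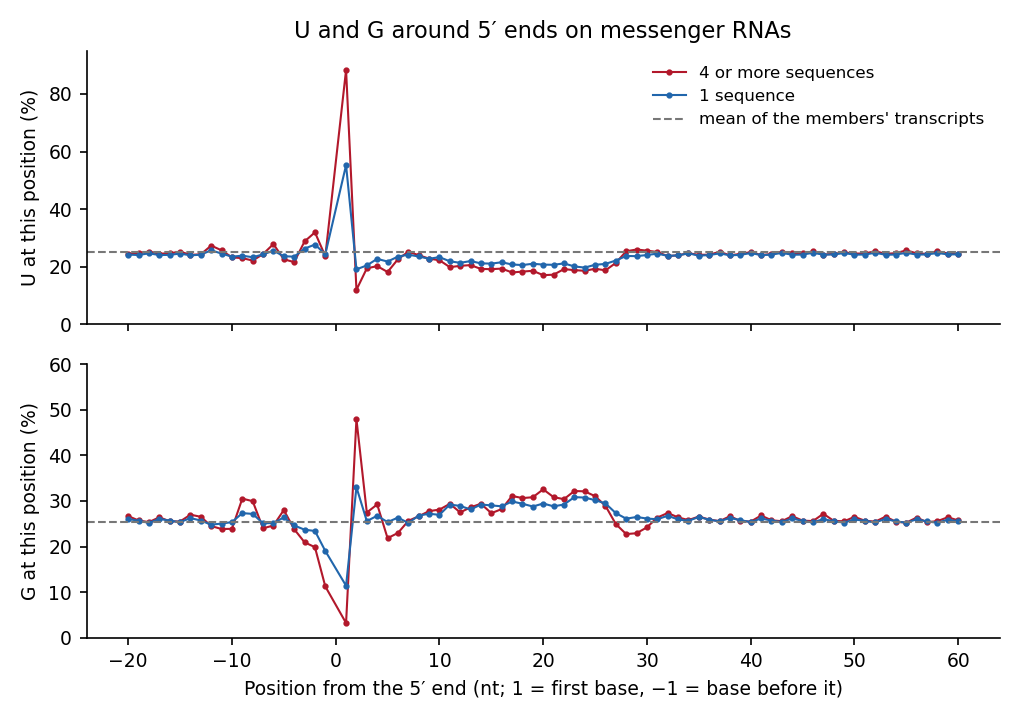
Share of U (upper panel) and G (lower panel) at each messenger position (vertical axes, %) around 5′ ends, by distance from the 5′ end (horizontal axis, nt), for multi-length and single-length ends; the dashed line is the mean of the transcripts that hold the multi-length ends. The U peak at position 1 reaches 88.3% at multi-length and 55.3% at single-length ends, and G at position 2 reaches 48.0% and 33.0%.

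A limited number of genes held many multi-length ends. Of 16005 protein-coding genes with an end of their own, 7943 had a multi-length end, 1849 had 10 or more and 122 had 100 or more. The 100 genes with the most held 20.9% of the multi-length ends of protein-coding genes and 6.83% of their single-length ends. D10Wsu102e led with 1154 multi-length ends, which on its long transcript came to 9.37 per kb. Abl2 had 517 (50.9 per kb), Gabpb2, a subunit of the GA-binding transcription factor, had 421 (48.6 per kb) and Rab11fip4, an effector of Rab11 in membrane traffic, had 382 (53.4 per kb). Tmem245 had 332, Tfcp2l1 281, Cbx5, which encodes the heterochromatin protein HP1 alpha, 274, Smcr8 256, Bend4 252, Pou2f1, an octamer-binding transcription factor, 244, and Stard9, a kinesin, 243. Among non-coding genes Gm49794 had 477 (36.6 per kb), 1700001L05Rik 296 (59.6 per kb) and Gm10505 246 (110.9 per kb). These genes also had many sequences, but each multi-length end itself adds several, so the counts are tied in part by construction. Without read counts, how much RNA of each gene was sampled is unknown, and its part in their order was not tested.

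The share of a gene's 5′ ends that were multi-length ranged widely. It was 5.94% over all protein-coding genes, with a median of 6.75% over the 1777 genes with 200 or more ends. The highest shares were those of Fth1, the ferritin heavy chain (93 of 292 ends, 31.8%), Hist1h1a, a linker histone (83 of 269, 30.9%), Cox4i1, a subunit of cytochrome oxidase (58 of 203, 28.6%), Abl2 (21.1%) and the zinc finger gene Zfp346 (20.8%). Fth1, Hist1h1a and Cox4i1 had short transcripts, the longest of 2062 nt, 741 nt and 765 nt. Only 48.4%, 47.0% and 53.4% of their multi-length ends began with U. Abl2 and Zfp346 had longest transcripts of 10151 nt and 3333 nt, so the highest shares were not confined to short transcripts. The lowest shares, in genes with longest transcripts of 7615 to 23279 nt, were those of Akap9, a scaffold for protein kinase A (1 of 260 ends, 0.385%), the cytoskeletal linker gene Dst (5 of 702, 0.712%), Mkln1 (0.810%), and Cntrl and Cdc42bpa (0.830% each).

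Higher 5′ U at multi-length ends was seen gene by gene. In 993 of 994 genes with 20 or more ends of each kind, multi-length ends began with U more often than single-length ends, with a median difference of 38.9 percentage points. The exception was Pole3, a subunit of DNA polymerase epsilon, with 33.3% against 34.2%. In D10Wsu102e the shares were 86.2% and 47.2%, in Abl2 75.6% and 37.0%, and in Rab11fip4 69.4% and 31.3%.

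Genes of the piRNA pathway and of germ cells were represented, and genes of later germ cells were not. Of 22 piRNA pathway genes, 17 had a multi-length end, where 7943 of all 16005 protein-coding genes with an end of their own had one. Of their 2624 ends, 110 were multi-length (4.19%, 3.46–5.03%), below the 5.94% of all protein-coding genes. Exd1, which binds RNA in the complex that makes piRNAs, had 40 and Piwil2, which encodes MILI itself, had 18. The helicase gene Mov10l1 had 9 and Mael 6, and Tdrkh had 5. Tdrd9, the gene mutated in the study, had 4 of 95 ends. Of 14 genes of undifferentiated spermatogonia 9 had a multi-length end (6.44% of their ends, Lin28a and Sall4 leading with 40 and 31), as did 8 of 9 genes of differentiating spermatogonia (6.78%, Ccnd2 with 71 and Uchl1 with 11) and 13 of 18 of meiotic prophase (5.56%, Tex15 with 60 and Sycp3 with 13). The intervals of these 3 shares (5.40–7.60%, 5.58–8.15% and 4.66–6.58%) include the 5.94% of all protein-coding genes. The medians over genes were lower, at 3.20%, 2.80% and 3.45% for these 3 lists and 2.77% for the piRNA pathway. Ccnd2 alone gave 71 of the 105 multi-length ends of its list. Of 13 genes of later germ cells, 9 had a listed end, and 0 of their 104 ends were multi-length, which allows a share of up to 3.48%. Lists of other cell types had fewer ends than those of spermatogonia and meiotic prophase, although Star alone had 165 and Ctsl 77. In Sertoli cell genes 6 of 152 ends were multi-length (3.95%, 1.46–8.39%), in Leydig cell genes 6 of 172, all of them in Star (3.49%, 1.29–7.44%), and in genes of blood, endothelium and macrophages 2 of 45 (4.44%, 0.543–15.1%). These shares have wide intervals, which include both the 4.04% of all 5′ ends and the 5.94% of all protein-coding genes. Among genes with a listed end, 2 of 11 Sertoli, 1 of 3 Leydig and 2 of 5 blood, endothelium and macrophage genes had a multi-length end. The Sertoli multi-length ends were those of Ctsl (4 of 77 ends) and Gata4 (2 of 13). Sox9, Amh and Wt1 had none among 32 ends, which allows a share of up to 10.9%.

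Multi-length ends were concentrated in dense stretches of the genome. Windows of 20 kb with 1000 or more sequences held 42.1% (41.9–42.4%) of them and 12.1% of single-length ends. That multi-length ends lie where sequences are many follows in part from how they were chosen. In these 581 windows 85.8% of multi-length ends and 52.5% of single-length ends began with U. Multi-length ends were found in each of them, from 22 to 1064 per window (median 79), and in 15506 of the 81833 windows with any listed end. The 3 windows with the most adjoined on chromosome 17, from 27440001 to 27500000 (mm9). Their multi-length ends fell on 1 strand in the outer windows, with 0 of 760 on the plus strand in the first and 784 of 784 in the last, and in the middle window 970 of 1064 lay on the plus strand. In the middle window 156 of the 1064 matched a transcript in sense, most of them Gm10505. The other leading windows lay on chromosome 1, at 158560001 to 158580000 with 513 multi-length ends, all sense to Abl2, and at 133920001 to 133940000 with 491, of which 183 matched Elk4, a transcription factor of the ETS family.

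Multi-length ends had opposite-strand partners at 10 nt, the ping-pong overlap, more often than single-length ends. A partner was any listed end at that place, and whether it was made by slicing was not tested. A listed 5′ end on the opposite strand at an overlap of 10 nt was found for 970 of them, 0.694% (0.651–0.739%), against 0.403% (0.395–0.411%) of single-length ends. The mean over the other overlaps from 1 to 20 nt was 0.349% and 0.309%, so that the overlap of 10 nt stood 1.99-fold above the others for multi-length ends and 1.30-fold for single-length ends. With 3 sequences the ratio was 1.55 and with 2 it was 1.43. The ratio was higher for multi-length ends in 18 of 19 autosomes, the exception being chromosome 18 (0.841 against 1.21), where only 5 multi-length ends had a partner. After 10 nt, an overlap of 5 nt was the most frequent for both kinds of end.

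**Figure D5:**
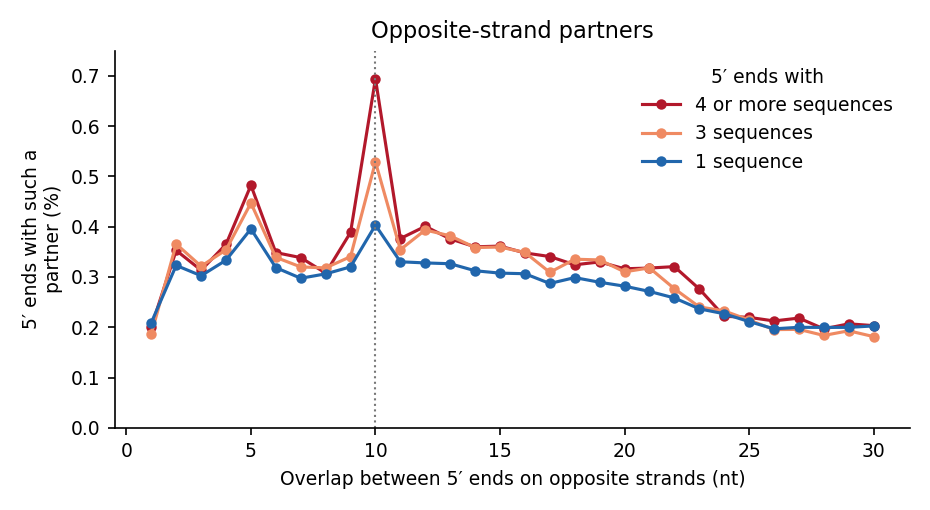
Share of 5′ ends (vertical axis, %) with a listed 5′ end on the opposite strand at each overlap (horizontal axis, nt), for ends with 4 or more, 3 and 1 sequences. The peak at 10 nt is 0.694% for multi-length ends, 0.529% with 3 sequences and 0.403% with 1, and a lower peak stands at 5 nt.

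The source of a multi-length end went with how often it had a partner. Of the 2629 that were only antisense to transcripts, 6.09% (5.20–7.07%) had a partner at 10 nt, against 0.583% for messenger sense ends and 0.529% for unmatched ends. The ratio over other overlaps was 1.91 for antisense ends and 2.06 for messenger sense ends. Of single-length ends, 3.97% of the antisense class had such a partner, with a ratio of 1.35. Among the 970 partnered multi-length ends, 88.6% began with U, and 54.5% (51.3–57.7%) had A at position 10, against 32.3% of those without a partner. Position 10 pairs with the first base of the partner, so this share is also the share of partners that began with U, which fixes it in part beforehand. It lay below the 68.8% of single-length ends that began with U, and below the 78.2% of ends with 2 sequences and 83.6% with 3. By the same pairing, the 88.6% is also the share of partners with A at position 10. The partner had 1 sequence in 67.6% of cases, and in 76 cases it was itself multi-length, with a ratio of 2.67. Each sequence is listed at 1 position only, and the genome was not searched for further copies. Within the list, 0.874% (0.826–0.924%) of multi-length ends and 0.849% (0.838–0.861%) of single-length ends had their first 20 nt again at another listed position. A stood at position 10 in 44.6% of these multi-length and 47.9% of these single-length ends.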

How the data were processed

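The authors deposited 1 table of distinct sequences with chromosome, start, end and strand, per the file headers. Start and end are genome positions and not counts, and the 4 libraries are pooled. Positions are on mm9, per the submitters' processing notes. How reads were aligned and filtered is not given in the sources used here. Each of the 4906138 sequences is listed at 1 position only, and within a 5′ end every shorter sequence was the start of the longest.

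The longest sequence of each 5′ end was matched exactly to 141767 spliced GENCODE M21 transcripts (GRCm38), by sequence alone, with no coordinates carried between builds. A gene's ends are those that match no other gene. Regions used the transcript with the longest coding sequence. Named genes are the 15 with the most multi-length ends, the 5 highest and the 5 lowest by share, Tdrd9 and the leaders of each list; 1 gene and 1 end are not reported here. Pole3 and Elk4 were named after their values were seen. Printed examples leave out chromosome 18, and those at the threshold were taken among ends with a known place on a messenger. The ends and lists were chosen with earlier results of these data known. No test between conditions was possible. Functions were tested on simulated data. Python 3.11.15, numpy 2.4.6, numba 0.67.0, scipy 1.17.1 and pandas 2.3.3 were used.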

Additional observations from a re-analysis of the deposited data

How the results depend on the processing

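No paired analysis was possible because the list carries neither libraries nor counts, and the genotype comparison was not run for the same reason. In 30 of 30 comparisons with single-length ends (5′ U, A at position 10, opposite-strand ratio, share sense to protein-coding genes), multi-length ends were higher. These comparisons reuse the same ends and are not independent. Of 42 alternatives to the 6 main values, 18 stayed within the main interval (for the distance, within 1 SD over autosomes) and 24 moved beyond it. With 3 or more sequences as the limit, 5′ U was 85.8%, the distance between outermost 3′ ends 2.92 nt, unbroken ladders 76.4%, the ratio at 10 nt 1.73 and the share sense to protein-coding genes 60.5%. With 6 or more these were 94.0%, 6.05 nt, 65.4%, 2.57 and 67.8%. A at position 10 was then 31.6% (30.8–32.4%), an interval that includes the 31.4% of single-length ends. With sequences of 24 to 31 nt alone, the distance was 3.60 nt and 84.0% of ladders were unbroken. In windows with fewer than 1000 sequences, 5′ U was 91.7%, A at position 10 33.2%, the distance 3.69 nt, unbroken ladders 78.7%, the ratio 1.68 and the share sense to protein-coding genes 65.0%. The 5′ U share was 88.3% within ends sense to protein-coding genes, 84.7% within other transcripts, 92.2% within antisense ends, 91.3% within unmatched ends and 87.1% within coding sequence. Leaving out microRNA and structural RNA matches, or ends with recurring first 20 nt, moved none of the 6 values beyond its interval. These alternatives kept 139476 and 138491 of the 139712 multi-length ends. So few ends were removed that the values could hardly move, and nothing is concluded from it. Without D10Wsu102e, an alternative chosen after seeing the data, the density in 3′ UTRs over that in coding sequence came to 2.20 for multi-length and 1.18 for single-length ends. Counting an end for each gene it matched moved 1 of 87 genes by more than 1.5 times, the rRNA gene CT010467.1, from 18 to 34. The limits are those of a pooled list: rare and abundant sequences count alike, depth per library is unknown, and neither genotype, nor replicate error, nor the gel cut's share in the lengths can be had from it.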

Other observations

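Multi-length ends differed among themselves by where their ladders sat. The 11215 whose shortest sequence was 27 nt or more had A at position 10 in 37.3% and G at position 2, among those with 5′ U, in 41.5%. The 11720 whose shortest sequence was 23 nt or less had 30.2% and 55.7%. The 3242 that reached 31 nt or more began with U in 93.3% and had G at position 2 in 39.5% of those. The 2928 ends with outermost 3′ ends 8 nt or more apart began with U in 94.4%, were sense to protein-coding genes in 69.4% and lay in windows with 1000 or more sequences in 61.4%, against 87.9%, 62.0% and 37.3% of the 73477 with a distance of 3 nt. Broken and unbroken ladders were alike in 5′ U, with 89.1% and 89.2%.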
